A study of Mus musculus with 4 samples.

Results

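The 10 genes described here encode SOX transcription factors of neural cells. They were taken by symbol from the 48178 genes of the deposited table: Sox1, Sox2 and Sox3 of group B1, Sox21 of group B2, Sox4 and Sox11 of group C, Sox5 and Sox6 of group D, and Sox8 and Sox9 of group E. The RNA came from neurospheres, clusters of neural progenitors and their daughter cells that float in the medium, grown from the hippocampus of newborn (P0) C57BL/6 mice. They were fed FGF-2 (20 ng/ml) together with EGF (20 ng/ml) and collected on culture day 7. All 4 libraries carried hGFAPCre, a Cre recombinase driven by a human GFAP promoter and thus active in astrocytes and neural progenitors. The 2 control libraries are labelled ROSA26FGF13A +/+, and the 2 FGF13Aoe libraries ROSA26FGF13A LSL/+, read here as a cassette at the ROSA26 locus behind a loxP-flanked stop on a single allele. That +/+ means no cassette is taken from the title Control and is an assumption. Cells of a mouse were spread over 2 wells, and whether the replicates are separate pups is not labelled, so the spread behind each p-value may be technical.

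SOX proteins bind a short DNA element through a shared HMG box and bend the DNA there, and the sequence of that box sorts them into lettered groups. In the developing forebrain group B1 proteins keep cells in the progenitor state, the B2 protein SOX21 is known as a repressor that counteracts them, and group C proteins act in young neurons. Group E proteins direct cells towards glia, where SOX9 acts in astrocytes and their precursors and SOX10 in oligodendrocytes, and group D proteins, which carry no activation domain of their own, modulate the action of other SOX proteins.

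In FGF13Aoe neurospheres 8 of the 10 Sox genes were higher than in control, 1 was lower (Sox11) and 1 did not pass (Sox3). The glial genes Sox8 and Sox9 rose 3.80-fold and 2.71-fold, and the progenitor gene Sox2 rose 2.16-fold. In group C the pair parted, since Sox4 rose 2.57-fold while Sox11 fell by 0.65 on the log2 scale. Sox1 and Sox5 rose by less, 1.44-fold and 1.45-fold, and their adjusted p lay just under the threshold (limma, 0.0482 and 0.0471). The call was limma's adjusted p under 0.05, made on log2(normalized count + 1) in a fit over 15204 genes, of which 35.3% were called, 16.2% higher and 19.1% lower. All 10 Sox genes passed the filter on low counts, and each of them had at least 360.4 normalized counts in every library. Their median log2 change was 1.18, beside -0.01 over all genes tested. The 2 libraries of a group lay beyond both libraries of the other group in 9 of the 10, beside 73.7% of all genes tested. In 8 of them FGF13Aoe was the higher group, and in 1 the lower, beside 36.2% and 37.5% of all genes. In bulk RNA, a larger share of cells of a type and more RNA per cell cannot be told apart.

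**Figure D1:**
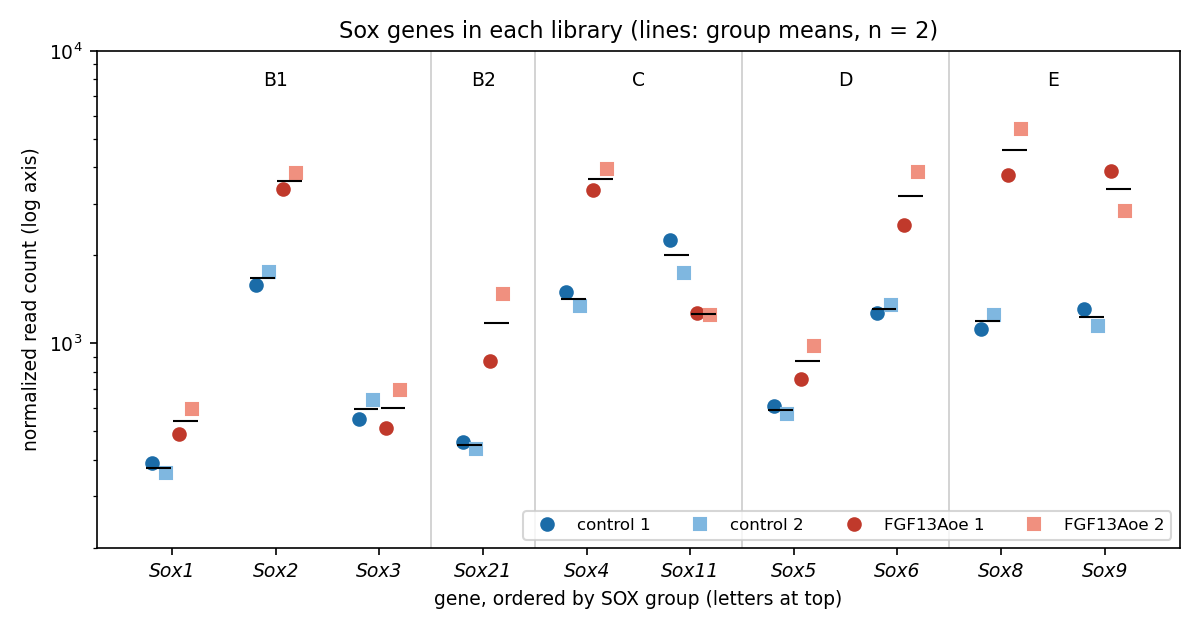
Normalized read counts (log axis) of the 10 Sox genes in each of the 4 libraries, ordered by SOX group; horizontal lines are the means of 2 libraries. Both FGF13Aoe libraries lie above both control libraries in 8 genes, and below them in Sox11; in Sox3 one FGF13Aoe library lies below both controls and the other above both.

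The libraries held 9724413 to 14092685 reads in genes. Fgf13, the overexpressed gene, had normalized counts of 772 and 769 in control against 5410 and 4447 in FGF13Aoe, so its level followed the labels. The summed normalized count of 6 neural progenitor markers (Nes, Vim, Fabp7, Slc1a3, Hes5 and Prom1) was 85458 and 88771 in control against 79228 and 85922 in FGF13Aoe. Vim, Fabp7 and Slc1a3 made up most of that sum and did not pass, while Nes fell and Hes5 and Prom1, which were low in control, rose (log2 changes -2.04, 3.57 and 1.85). The cultures were mixed. The sums of 6 neuron markers were 19397 and 14405 in control against 2982 and 2727 in FGF13Aoe. Those of 5 oligodendrocyte markers were 2306 and 4064 against 21542 and 19801, and those of 6 astrocyte markers 49463 and 32453 against 145059 and 169006. Gfap was the largest part of the astrocyte sum in each library, with 30384 and 12875.5 in control against 111437 and 135769 in FGF13Aoe. The other astrocyte markers changed less on the log2 scale, and Slc1a2, Aldh1l1 and S100b did not pass.

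Promoter sequences are shown for 4 of the genes: the group C pair that parted, the group E gene with the largest change among the 10, and Sox2. RefSeq promoters were found for 8 of the 10 (build GRCm38.p6), not for Sox3 and Sox9. Each line gives the 250 bases before the RefSeq start, 5′ to 3′ on the strand of the gene. Capitals mark any match, on either strand, to 5 motifs: the SOX core elements ACAATG and ACAAAG, the GC box GGGCGG, the CCAAT box and the TATA element TATAAA.
Sox2, chr3:34649745-34649994, plus strand: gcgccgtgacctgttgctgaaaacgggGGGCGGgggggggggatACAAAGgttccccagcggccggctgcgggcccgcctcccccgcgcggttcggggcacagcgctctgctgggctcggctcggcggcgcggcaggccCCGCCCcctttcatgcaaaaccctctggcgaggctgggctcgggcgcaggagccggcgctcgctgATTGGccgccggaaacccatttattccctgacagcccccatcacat
Sox4, chr13:28953700-28953949, minus strand: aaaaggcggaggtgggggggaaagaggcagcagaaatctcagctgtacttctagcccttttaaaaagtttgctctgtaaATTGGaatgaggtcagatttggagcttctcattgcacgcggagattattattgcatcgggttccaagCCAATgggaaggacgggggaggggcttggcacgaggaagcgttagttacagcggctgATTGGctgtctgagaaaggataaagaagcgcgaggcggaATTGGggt
Sox11, chr12:27342719-27342968, minus strand: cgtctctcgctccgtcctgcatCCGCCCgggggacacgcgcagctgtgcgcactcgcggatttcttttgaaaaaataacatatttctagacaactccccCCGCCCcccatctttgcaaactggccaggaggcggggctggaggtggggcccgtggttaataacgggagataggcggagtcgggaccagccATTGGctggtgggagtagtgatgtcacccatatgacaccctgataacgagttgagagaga
Sox8, chr17:25570687-25570936, minus strand: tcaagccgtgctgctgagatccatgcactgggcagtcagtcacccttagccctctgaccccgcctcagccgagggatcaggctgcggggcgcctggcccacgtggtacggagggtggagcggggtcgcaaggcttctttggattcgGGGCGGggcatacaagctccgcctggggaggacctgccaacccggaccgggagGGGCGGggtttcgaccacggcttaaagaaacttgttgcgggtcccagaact

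In this window Sox4 held 4 CCAAT boxes and Sox11 held 1, while Sox11 held 2 GC boxes and Sox4 held 0. Sox8 had 2 GC boxes and no CCAAT box. Sox2 had 2 GC boxes, 1 CCAAT box and 1 ACAAAG element. Over 32536 promoter windows of 250 bases, 33.8% held a CCAAT box, 33.0% a GC box, 16.5% ACAAAG, 10.5% ACAATG and 12.3% TATAAA. The window was richer in G and C at Sox2 (72.0%) and Sox8 (65.6%) than at Sox11 (58.0%) and Sox4 (50.8%), beside a median of 52.4% over all windows. A match is a description of these letters, not a binding site.

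Group B1 was led by Sox2, the factor that maintains neural stem cells (ENSMUSG00000074637, GRCm38 chromosome 3, 34650405 to 34652461, plus strand; a gene of 1 exon). Sox2 had normalized counts of 1584 and 1749.9 in control against 3381 and 3812 in FGF13Aoe. The groups were well apart, and each FGF13Aoe library was above each control library. On the log2 scale it changed by 1.11 ± 0.13 (SE, n = 2 per group; limma adjusted p = 0.00343). Sox1, a gene of neuroepithelial progenitors (ENSMUSG00000096014, chromosome 8, 12395295 to 12400126, plus strand), had 391 and 360.4 in control against 488 and 597 in FGF13Aoe. The groups did not overlap, but the gap was narrow beside that of Sox2 (log2 change 0.52 ± 0.16, SE, n = 2 per group). Sox3, the X-linked member of the group (ENSMUSG00000045179, chromosome X, 60891366 to 60893430, minus strand), had 551 and 639 in control against 512 and 693 in FGF13Aoe. Its groups overlapped, and its log2 change was 0.01 ± 0.19 (SE; limma adjusted p = 0.980).

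On the scale of counts per kilobase of exon, Sox2 was the highest of the 10 genes in each of the 4 libraries, at 770 and 851 in control against 1643 and 1853 in FGF13Aoe. Its share of the summed group B1 level per kilobase was 68.9% in each control library and 82.5% and 80.1% in FGF13Aoe. The share of Sox3 was 23.9% and 25.1% in control against 12.5% and 14.5% in FGF13Aoe. Within a library such a share does not depend on how libraries were scaled, and it parted the groups without overlap. An exact permutation test of 2 libraries against 2 cannot give a two-sided p below 0.333, and no model of the shares was fitted, so they are given as a description.

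Sox2ot and Sox1ot are long noncoding transcripts whose genes span Sox2 and Sox1 on the same strand without sharing exons; they were chosen after their values were seen. Sox2ot had normalized counts of 377 and 442 in control against 545 and 869 in FGF13Aoe, and it did not pass (log2 change 0.75 ± 0.24, limma adjusted p = 0.0583). Sox1ot had 153 and 111 in control against 104 and 140 in FGF13Aoe, so its groups overlapped.

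Sox21, the B2 gene (ENSMUSG00000061517, chromosome 14, 118233232 to 118237030, minus strand; 1 exon), had 461 and 437 normalized counts in control against 872 and 1479.8 in FGF13Aoe. The control libraries were close together and the FGF13Aoe libraries far apart, with replicate 2 the higher. On the log2 scale it changed by 1.34 ± 0.25 (SE, n = 2 per group; limma adjusted p = 0.0126). Of its exonic bases 18.8% overlap Gm4675, a noncoding gene on the opposite strand with 9.91 and 13.8 normalized counts in control against 30.2 and 36.4 in FGF13Aoe. Use of strand in counting is not given in the sources used here, so reads in shared bases cannot be assigned with certainty. Per kilobase, the ratio of Sox21 to Sox2 was 0.157 and 0.135 in control against 0.140 and 0.210 in FGF13Aoe, and these ranges overlapped.

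Group C was the group whose members went opposite ways. Sox4 (ENSMUSG00000076431, chromosome 13, 28948919 to 28953713, minus strand; 1 exon), which acts in progenitors and young neurons, had 1503 and 1337 normalized counts in control against 3344 and 3958 in FGF13Aoe. Both FGF13Aoe libraries were far above both controls (log2 change 1.36 ± 0.14, SE, n = 2 per group; limma adjusted p = 0.00254). Sox11 (ENSMUSG00000063632, chromosome 12, 27334264 to 27342574, minus strand; 1 exon), known in immature neurons, had 2264 and 1738 in control against 1266 and 1253 in FGF13Aoe. The FGF13Aoe libraries were nearly equal and lay below both controls, which differed among themselves (log2 change -0.65 ± 0.16, SE; limma adjusted p = 0.0248).

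The ratio of Sox4 to Sox11 per kilobase was 1.15 and 1.33 in control against 4.58 and 5.47 in FGF13Aoe. Sox4 thus made up 53.5% and 57.2% of the summed level of the pair in control against 82.1% and 84.6% in FGF13Aoe. The shift is a ratio within a library and shows unequal change of the pair. Of the exonic bases of Sox4 54.6% overlap Gm26735, a noncoding gene on the opposite strand that is listed at 0 in all 4 libraries. Reads in those bases may have been left out of the count of Sox4, so its level beside other genes is uncertain. Neuron markers moved with the fall of Sox11: 6 of 6 fell (median log2 change -3.01), beside 19.1% of all genes called lower. The neuron genes Tubb3 and Dcx had log2 changes of -2.99 and -2.73, and the part of these cells in the result for Sox11 was not tested.

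**Figure D2:**
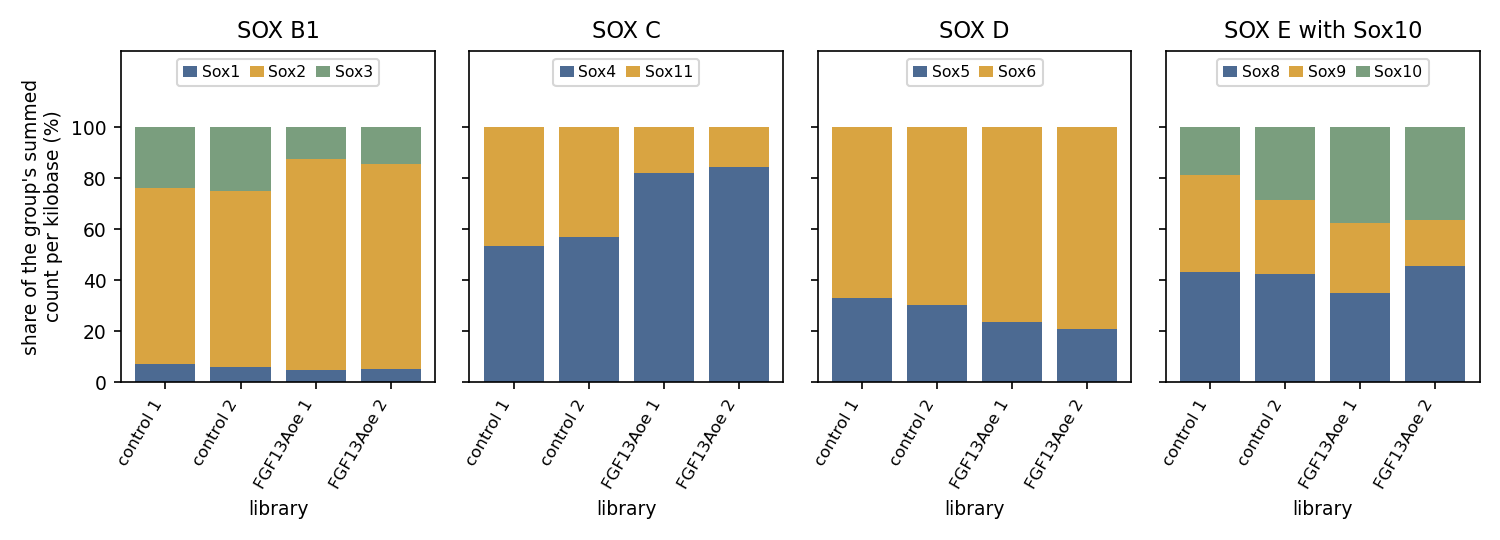
Share of each gene in the summed count per kilobase of the genes shown for its SOX group (%), for each library. Sox10, which is not among the 10 genes, is added to group E. Sox12 and Sox13, the third genes of groups C and D, are not added. For the group C pair shown, the share of Sox4 is 53.5% and 57.2% in control against 82.1% and 84.6% in FGF13Aoe. With Sox12 added it is 39.3% and 40.4% in control against 64.8% and 69.4% in FGF13Aoe. In group B1 the share of Sox2 is larger and that of Sox3 smaller in FGF13Aoe.

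Both group D genes rose. Sox6, which with Sox5 acts on the timing of oligodendrocyte and neuron specification (ENSMUSG00000051910, chromosome 7, 115470872 to 116038796, minus strand), had 1266 and 1349.6 normalized counts in control against 2536 and 3838 in FGF13Aoe. The controls were close, and FGF13Aoe replicate 2 was well above replicate 1 (log2 change 1.25 ± 0.21, SE, n = 2 per group; limma adjusted p = 0.00877). Sox5 (ENSMUSG00000041540, chromosome 6, 143828425 to 144781977, minus strand) had 612 and 573 in control against 758 and 981 in FGF13Aoe. Its groups did not overlap, with a smaller change (log2 change 0.54 ± 0.16, SE). The ratio of Sox6 to Sox5 per kilobase was 2.00 and 2.28 in control against 3.24 and 3.79 in FGF13Aoe. These genes are long, with 16 and 14 annotated transcripts, and counts per gene do not separate their isoforms. Of the exonic bases of Sox5 9.25% overlap Sox5os1, which is listed at 0.

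Both group E genes rose. The log2 change of Sox8 was the largest of the 10 with all 4 libraries and without each of them in turn. Without FGF13Aoe replicate 2, though, Sox8 and Sox9 were nearly equal (1.665 and 1.663). With all 4 libraries the change of Sox9 lay within its error of Sox4 and Sox21. Without FGF13Aoe replicate 1 it was under those of Sox21, Sox6 and Sox4 (1.22 against 1.72, 1.55 and 1.48). Sox8 (ENSMUSG00000024176, chromosome 17, 25565892 to 25570686, minus strand; up to 3 exons), which acts with Sox9 and Sox10 in glial development, had 1122 and 1254 normalized counts in control against 3764 and 5408 in FGF13Aoe. Every FGF13Aoe library lay far above every control library. On the log2 scale it changed by 1.93 ± 0.19 (SE, n = 2 per group; limma adjusted p = 0.00249), and 97.6% of all genes tested had a lower log2 change. Sox9 (ENSMUSG00000000567, chromosome 11, 112782224 to 112787760, plus strand; 3 exons), a gene of gliogenic progenitors and astrocytes, had 1309 and 1144 in control against 3877 and 2842 in FGF13Aoe. Here FGF13Aoe replicate 1 was the higher of the pair, while replicate 2 was the higher for Sox8 (log2 change of Sox9 1.44 ± 0.18, SE; limma adjusted p = 0.00427). The ratio of Sox8 to Sox9 per kilobase was 1.14 and 1.45 in control against 1.29 and 2.52 in FGF13Aoe, and these ranges overlapped.

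Sox8 has an antisense neighbour, 2810468N07Rik, on the opposite strand, whose exons cover 10.6% of its exonic bases. This noncoding gene had 166 and 209 normalized counts in control against 1433 and 1695 in FGF13Aoe. Its log2 change of 3.06 ± 0.17 (SE; limma adjusted p = 0.00111) was larger than that of Sox8; the difference between them was not tested. Without stated use of strand, how reads in the bases shared by this gene and Sox8 were counted is not known.

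The third gene of group E is Sox10, the defining factor of the oligodendrocyte lineage, which is not among the 10 genes. Sox10 had 475 and 823 normalized counts in control against 3956 and 4194 in FGF13Aoe (log2 change 2.70 ± 0.26, SE, n = 2 per group; limma adjusted p = 0.00215). Per kilobase, the ratio of Sox10 to Sox9 was 0.491 and 0.976 in control against 1.38 and 2.00 in FGF13Aoe. The summed level per kilobase of Sox8 and Sox9 was 676 and 679 in control against 2145 and 2422 in FGF13Aoe. The ratio of its group means was 3.37, beside 1.83 for group B1, 2.62 for Sox21, 1.70 for group C and 2.13 for group D. These ratios hold only the 10 genes. With the third gene of the group added, they were 4.06 for group E (Sox10), 1.52 for group C (Sox12) and 1.90 for group D (Sox13). Most markers of oligodendrocytes moved with group E. Of 5 such markers 4 rose, among them Myrf, with a median log2 change of 2.96, beside 16.2% of all genes called higher. The other, Mog, had 72.3 and 38.2 normalized counts in control against 13.3 and 28.3 in FGF13Aoe. Mog was thus lower, without passing (log2 change -1.39, limma adjusted p = 0.0812). Markers of oligodendrocyte progenitors were mixed: of 5, 2 rose (Gpr17 and Sox10 itself), with a median of 0.87. The other 3, Pdgfra, Cspg4 and Olig2, did not pass, with log2 changes of 0.87, 0.07 and -0.35. Of 6 astrocyte markers 3 rose (Gfap, Aqp4 and Gja1), with a median of 0.80. The part of these cells in the results for Sox8 and Sox9 was not tested. Of 4 neural crest and Schwann cell markers, among them Sox10 itself, Foxd3 was at 0 in all 4 libraries. Ngfr fell from 45.6 and 26.8 normalized counts to 12.1 and 5.06 (limma adjusted p = 0.0348), and Pmp22 had 613 and 761 against 454 and 153 without passing (adjusted p = 0.0757).

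**Figure D3:**
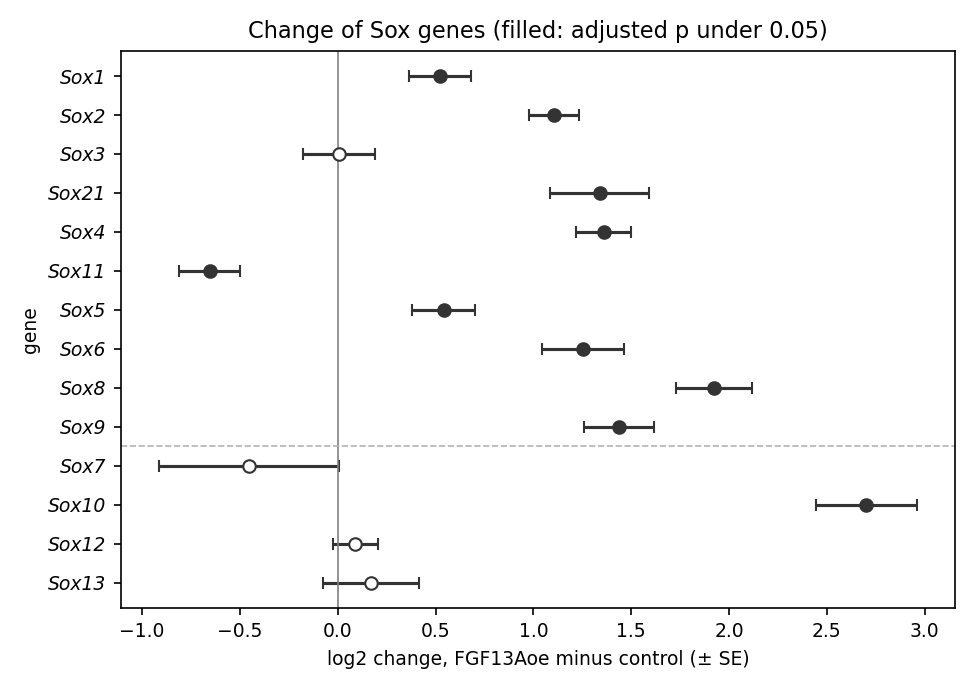
Log2 change (FGF13Aoe minus control) with its SE for the 10 Sox genes and, under the dashed line, the 4 other Sox genes tested; filled points passed limma's adjusted p under 0.05. Sox8 has the largest change of the 10 (1.93), Sox11 is the only one of them called lower (-0.65), and Sox10 reaches 2.70.

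Levels per kilobase were ordered alike in the libraries at the top and the bottom. Sox8 followed Sox2 in each library, at 360.0 and 402 in control against 1207 and 1734 in FGF13Aoe. In FGF13Aoe its range overlapped that of Sox2. In control, Sox9 (316 and 277), Sox4 (313 and 279) and Sox3 (267 and 309) overlapped in range and had no set order. Sox11 (272 and 209) lay under Sox9 and Sox4 there, and its range overlapped that of Sox3. In FGF13Aoe, Sox9 (938 and 687) and Sox4 (697 and 825) overlapped, and both lay above Sox3 (248 and 336). Sox21 (230 and 390), Sox6 (171 and 259) and Sox3 overlapped there, and Sox11 (152 and 151) lay under these 3 genes. Sox1 and Sox5 were the lowest pair in each library, with Sox1 at 74.6 to 124 and Sox5 at 39.8 to 68.2 over the 4 libraries. The order of Sox1 and Sox5 turned when counts were divided by the longest coding transcript in place of all exons, and Sox6 then ranked above Sox3 and Sox21 in FGF13Aoe replicates 1 and 2. Sox2 and Sox8 were the top pair on both scales.

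Of the 10 other SOX family genes listed, 4 passed the filter on low counts, and Sox10 was the only one of these called. Sox12, the third gene of group C, had 939 and 905 normalized counts in control against 1011 and 950.4 in FGF13Aoe (log2 change 0.09 ± 0.11, SE; limma adjusted p = 0.571). Sox13, the third gene of group D, had 131 and 195 against 175 and 185 (0.17 ± 0.24). Sox7, a group F gene known in endothelial cells, had 49.5 and 121 against 64.0 and 49.6 (-0.45 ± 0.46), and 5 endothelial markers summed to 163 and 48.8 against 59.2 and 85.0. In Sox12 the groups did not overlap but differed little, and in Sox13 and Sox7 they overlapped. Sox30 had 0.991 and 1.63 against 9.67 and 8.10, and Sox18 had 7.92 and 0 against 1.21 and 2.02, under the filter. Sox15 and Sox17 had at most 1.63 normalized counts in any library, and Sox14 and Sry were listed at 0 in all 4.

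Genes that work with SOX proteins or are known targets of them were described from lists made from general knowledge; their median and counts are read beside 16.2% and 19.1% of all genes called higher and lower. Of 10 partner factors 4 rose and 1 fell, with a median log2 change of 0.53. Pax6, a partner of SOX2 in eye and neural enhancers, rose from 368 and 375 normalized counts to 1410.0 and 1269 (log2 change 1.85 ± 0.12; limma adjusted p = 0.00121). Chd7, a chromatin remodeller that binds SOX2, rose from 1394 and 1478 to 3729 and 4657 (1.54 ± 0.15). Both genes had groups far apart.

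The POU factors, which share enhancers with group B1 proteins, went both ways. Pou3f2 rose from 344 and 421 to 622 and 743 (log2 change 0.84 ± 0.17; limma adjusted p = 0.0149), and Pou3f3 from 2448 and 2698 to 3697 and 3541 (0.49 ± 0.12; adjusted p = 0.0267). Pou3f1 fell from 167 and 203 to 21.7 and 4.05 (-4.11 ± 0.70; adjusted p = 0.00953). Both FGF13Aoe libraries were far below both controls, and 8.57% of the exonic bases of Pou3f1 overlap another gene. The other partners, Pou3f4, Nfia, Nfib, Olig1 and Olig2, did not pass, with log2 changes of -0.87 (Olig1) to 0.63 (Pou3f4).

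Of 12 group B1 target genes 10 passed the filter, 5 rose and 1 fell, with a median log2 change of 0.29. The Notch effector Hes5 rose from 89.2 and 22.8 normalized counts to 428 and 703 (log2 change 3.57 ± 0.63; limma adjusted p = 0.0105), the controls being far apart. Of its exonic bases 31.8% overlap a noncoding gene listed at 0. Nr2e1, a nuclear receptor of neural stem cells, rose from 462 and 459.6 to 871 and 998 (1.02 ± 0.13). Gli2, Socs3 and Notch1 had log2 changes of 1.34 ± 0.18, 1.88 ± 0.34 and 0.52 ± 0.13 (adjusted p = 0.00488, 0.0107 and 0.0280).

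Nes, the intermediate filament gene of progenitors with a known SOX and POU enhancer, moved opposite to Sox2. Nes fell from 11341 and 13805 normalized counts to 2310.1 and 4006 (log2 change -2.04 ± 0.28; limma adjusted p = 0.00518). Fabp7, Egfr, Gli3 and Birc5 did not pass, with log2 changes of -0.42, 0.02, 0.05 and -0.94, and Shh and Lin28b were under the filter.

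Of 4 group C targets 2 fell and none rose. Tubb3 had 6457 and 4704 normalized counts in control against 694 and 688 in FGF13Aoe, and Dcx had 6627 and 3716 against 669 and 831. Both are also general markers of young neurons. Map2 and Tead2 had log2 changes of -0.40 ± 0.21 and 0.72 ± 0.26 and did not pass (limma adjusted p = 0.182 and 0.0755).

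Of 7 glial targets of group E all passed the filter, 5 rose and none fell, with a median log2 change of 1.77. Mbp and Myrf were also counted among the oligodendrocyte markers above, and Pdgfra among those of oligodendrocyte progenitors. The myelin gene Mbp had a log2 change of 3.24 ± 0.43 (limma adjusted p = 0.00501). Myrf, the transcription factor that drives myelin genes with SOX10, rose from 207 and 320 normalized counts to 1956 and 2184 (adjusted p = 0.00134). Mmd2, an astrocyte gene downstream of SOX9 and NFIA, rose from 3147 and 2146 normalized counts to 9040.0 and 8775 (1.78 ± 0.20; adjusted p = 0.00330). Apcdd1, another such target, rose as well (log2 change 1.77 ± 0.40; adjusted p = 0.0220). Erbb3 had 14.9 and 22.0 against 76.1 and 49.6 (1.71 ± 0.39). Nfia and Pdgfra were higher in both FGF13Aoe libraries than in both controls without passing (0.56 ± 0.20 and 0.87 ± 0.31; adjusted p = 0.0726 and 0.0733).

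SOX9 with SOX5 and SOX6 is best known from cartilage, and genes of that program were also read. Of 7 such genes 6 passed the filter, 4 rose and 1 fell, with a median log2 change of 1.90. The collagen genes Col2a1, Col9a1 and Col11a2 rose: Col11a2 from 111 and 92.7 normalized counts to 433 and 448 (log2 change 2.11 ± 0.18; limma adjusted p = 0.00176), Col9a1 from 61.4 and 72.4 to 181 and 265, and Col2a1 from 36.7 and 22.8 to 297 and 109. Matn1 had 0.991 and 2.44 against 31.4 and 32.4, so its fold rests on few reads in control. Hapln1, a link protein of brain and cartilage matrix, fell from 140 and 203 to 7.25 and 3.04 (-4.87 ± 0.46; adjusted p = 0.00213). Acan had 22.8 and 27.7 against 12.1 and 8.10 and did not pass, and Comp was under the filter. Per kilobase, Col11a2 (62.9 and 65.2 in FGF13Aoe) was near Sox5 (52.7 and 68.2). Markers of pericytes and fibroblasts fell in 3 of the 5 tested, beside 19.1% of all genes called lower. Their sums over 6 genes were 745 and 580.04 in control against 283 and 214 in FGF13Aoe.

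**Figure D4:**
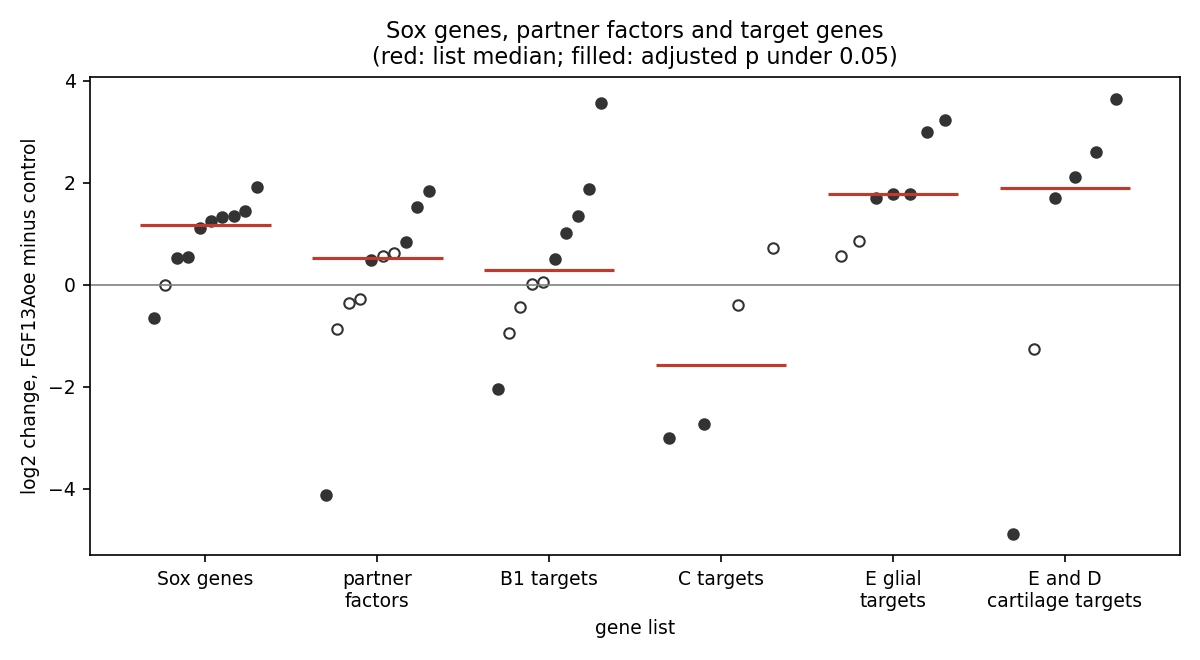
Log2 change (FGF13Aoe minus control) of each tested gene in the Sox list and 5 lists of SOX partners and targets; red lines are list medians and filled points passed limma's adjusted p under 0.05. The medians are 1.18 for the Sox genes, 0.53, 0.29 and -1.57 for partners, B1 targets and C targets, and 1.77 and 1.90 for the E glial and cartilage targets.

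The calls were then read with single libraries left out. Sox2, Sox4, Sox8 and Sox9 passed without each of the 4 libraries, with log2 changes of 1.02 to 1.19, 1.24 to 1.48, 1.66 to 2.19 and 1.22 to 1.66. Without control replicate 1 Sox1, Sox5, Sox6, Sox11 and Sox21 did not pass (limma adjusted p = 0.181, 0.177, 0.0642, 0.184 and 0.0656), and their log2 changes were 0.58, 0.59, 1.21, -0.46 and 1.38. Without control replicate 2 Sox1, Sox5, Sox11 and Sox21 did not pass (adjusted p = 0.255, 0.233, 0.0520 and 0.0671; log2 changes 0.46, 0.49, -0.85 and 1.30). Without FGF13Aoe replicate 2 Sox1 and Sox5 did not pass (adjusted p = 0.0880 and 0.0706; log2 changes 0.38 and 0.35), and without FGF13Aoe replicate 1 all 9 passed. With 1 library left in a group, that library is assumed to vary like the other group. The direction of the 9 called genes was the same in each of these fits, while Sox3, which was not called, ran from -0.21 to 0.22.

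By edgeR on reads recovered from 3 libraries (without control replicate 1), Sox4, Sox8 and Sox9 passed, while Sox2, Sox21 and Sox6 had log2 changes of 1.06, 1.45 and 1.26 with adjusted p = 0.0517, 0.0624 and 0.0664. The authors' deposited table calls 7 of the 10 genes higher and 1 lower, and differs from the calls above in Sox1 (log2 fold change 0.52, adjusted p = 0.0710 in the authors' deposited table).

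**Figure D5:**
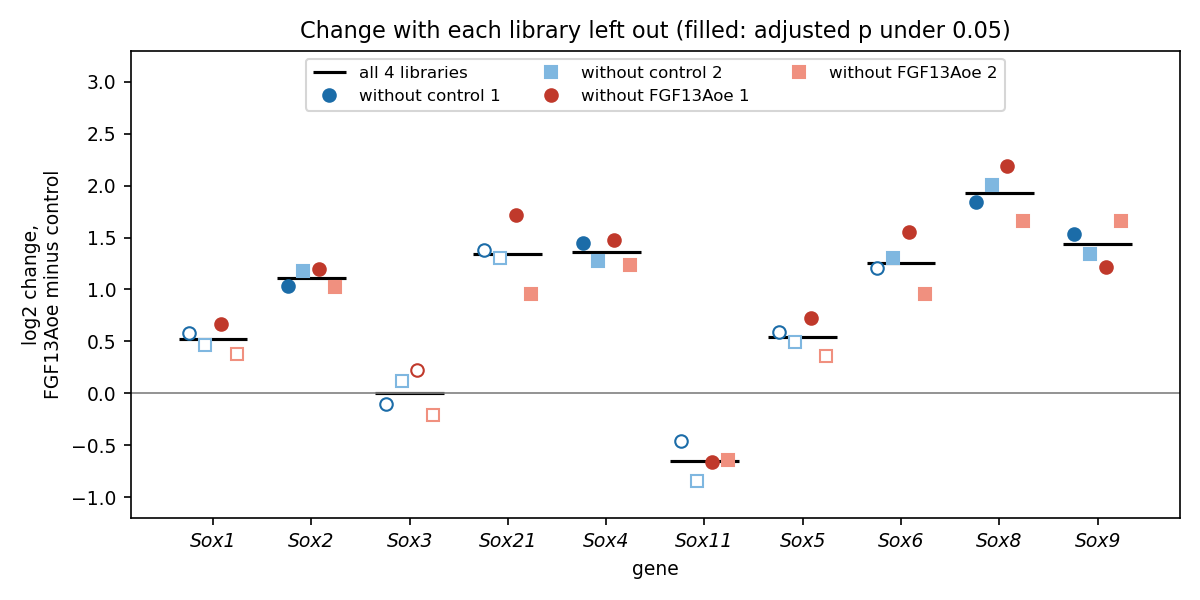
Log2 change (FGF13Aoe minus control) of each Sox gene with all 4 libraries (black lines) and with each library left out in turn (points; filled where limma's adjusted p was under 0.05). Sox2, Sox4, Sox8 and Sox9 keep filled points throughout, and Sox1 and Sox5 keep theirs only without FGF13Aoe replicate 1.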

How the data were processed

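RNA from 4 neurosphere libraries was sequenced by the submitters from total RNA, using NEBNext Ultra reagents, per the labels' protocols. Per the submitters' processing notes, STAR, DESeq2 and mm10 were used; versions, annotation release and strand setting: not given in the sources used here. For each gene and library the authors deposited a normalized signal, which is its read count over that library's size factor, its mean, a log2 fold change with a standard error and Wald score, and a p-value and adjusted p-value. Dividing a library's values by its smallest value above 0 gave whole numbers for 100% of genes (tolerance 1e-06), and their sums are the read totals. In control replicate 1 the step was 0.991, too close to 1 for recovered reads to be accepted, so edgeR 4.0.16 was run on 3 libraries only.

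Genes with at least 10 normalized counts in at least 2 libraries were tested with limma 3.58.1 (R 4.3.3; trended prior variance, no replicate block) on log2(normalized count + 1), two-sided, with Benjamini-Hochberg adjustment over all 15204 genes. Log2 changes on this scale understate low genes. Groups came from sample titles. The SD over genes of the log2 difference between replicates was 0.43 in control and 0.59 in FGF13Aoe. Exonic lengths and positions came from GENCODE M21 on GRCm38, which held 15191 of the tested genes. The Sox genes and the lists were chosen with earlier results of these data known, and some genes first listed are not reported here. All 10 Sox genes are named, as are all listed family genes and genes whose exons overlap those of the 10. Gm25239, which overlaps 1.78% of the exonic bases of Sox1, was at 0 in all 4 libraries. In the partner and target lists up to 6 called genes are named, and those that did not pass as well. Not every gene of the marker lists is named. On simulated reads of this comparison over 14899 genes, limma called 28% of 100 genes set to differ 2-fold and 95% of 100 set to differ 4-fold, 0 in the wrong direction, and 11.5% of its calls were false. edgeR on 3 libraries recovered 20% and 90%, with 14.1% false. In the simulation only these 2-fold and 4-fold genes differed, while 35.3% of genes were called in the data. Recovery and false shares in the data may thus differ from these.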

Additional observations from a re-analysis of the deposited data

How the results depend on the processing

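Of all genes, 2467 were higher and 2906 lower, and of the 10 Sox genes 8 and 1. Under 2 other pseudocounts, a stricter filter, TMM scaling and median centring the calls of all 10 Sox genes were the same. Median centring raised the share of all calls that were higher from 45.9% to 52.3%. Without a filter on low values Sox1 and Sox5 did not pass (adjusted p = 0.0655 and 0.0608). Without an intensity trend Sox1, Sox5 and Sox11 did not pass (adjusted p = 0.0933, 0.105 and 0.0717), so 0 were lower. Leaving out single libraries gave 551 to 2822 genes higher and 867 to 3447 lower, and 4 to 8 Sox genes higher and 0 to 1 lower. With edgeR on recovered reads of 3 libraries 537 genes were higher and 1086 lower, and 3 Sox genes were higher (Sox4, Sox8 and Sox9) and 0 lower. The cause of these differences was not tested. A direction turned in no called Sox gene.

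The replicate numbers share only a number in the labels, and deviations of same-numbered libraries correlated at -0.10 across genes. With a replicate block 2049 genes were higher and 2647 lower, and 6 Sox genes were higher and 1 lower, Sox1 and Sox5 not passing. With the numbers crossed, an alternative added after the data were seen, 2816 and 3257 genes and 8 and 1 Sox genes were called. With 2 libraries per group, small changes can go uncalled: the called Sox genes under 2-fold, Sox1, Sox5 and Sox11, did not pass in some settings. Of the called genes above 2-fold, Sox2, Sox6 and Sox21 did not pass in every setting either, while Sox4, Sox8 and Sox9 did.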
